A study of Homo sapiens with 8 samples.

Results

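Chromosome 13 carried 1046 of the 58952 H3K4me2 regions found in RD cells on chromosomes 1 to 22 and X. The regions were made by merging the peaks of 4 library lists wherever they overlapped by at least 1 bp, and every merged interval on chromosome 13 is a member. RD is an established human rhabdomyosarcoma line, and dimethylation of lysine 4 of histone H3 (H3K4me2) was mapped in it by chromatin immunoprecipitation and sequencing. The study's title places the work in the adhesion of these cells. The siLSD1 cells received 1 siRNA construct against LSD1, and the siCtrl cells a control siRNA. Both groups are unselected RD cells without any other stated alteration. The siRNA was delivered by reverse transfection, with fresh medium after 8 hours and harvest at 96 hours. Each group has 2 libraries that the submitters call biological replicates, and a pooled peak list of both. The knockdown itself was not measured here, and the cell line was not checked against marker genes because no gene annotation of the hg19 build was used.

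H3K4me2 marks promoters and enhancers, and broad stretches of it often lie over genes that govern cell identity. LSD1, encoded by KDM1A, is a demethylase that takes methyl groups off mono- and dimethylated lysine 4 and works in repressive complexes such as CoREST. Chromosome 13 is acrocentric, meaning that its short arm is minute and made of repeats and ribosomal RNA genes, and its long arm is among the gene-poorest of the human chromosomes. It carries RB1 and BRCA2, which are tumour suppressors, and FOXO1, the gene that PAX3 or PAX7 is fused to in alveolar rhabdomyosarcoma. RD is of the embryonal type.

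Chromosome 13 was sparse in H3K4me2 in every list. It held 9.08 regions per Mb, against 19.8 regions per Mb over the other chromosomes together. Chromosome X was sparser, with 8.26 regions per Mb, and chromosome 21 came next with 14.0. The bands of the short arm held 0 regions, and the first region began at 19.2 Mb. How much sequence the build holds before that point was not examined, so the 0 is no measure of the mark there. Whole-chromosome densities divide by all 115.2 Mb, this stretch included, and those of other chromosomes likewise use full lengths. Per Mb of the long arm, counted from 17.9 Mb, the density was 10.8. In peaks per Mb of the whole chromosome, siLSD1 replicates 1 and 2 had 6.43 and 7.76, against 4.60 and 7.22 in siCtrl replicates 1 and 2. On the other chromosomes the same lists had 17.1 and 16.7 peaks per Mb for siLSD1 and 11.4 and 15.1 for siCtrl. The pooled lists gave 8.76 peaks per Mb on chromosome 13 for siLSD1 and 7.03 for siCtrl.

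Peaks on this chromosome were also narrower and lower in score than elsewhere. The score is the authors' own value per peak. It serves here to describe peaks and to rank them within their own list, where the 100th percentile is the top, and its scale differed between lists, with medians elsewhere of 179 and 208 for siLSD1 and 177 and 281 for siCtrl. The median peak of chromosome 13 stood at percentiles 37.4 and 38.6 in the siLSD1 libraries and 32.9 and 41.8 in the siCtrl libraries. Median widths on chromosome 13 were 1112 and 1262 bp for siLSD1 and 1117 and 1311 bp for siCtrl. Elsewhere they were 1583 and 1709 bp for siLSD1 and 1764 and 1700 bp for siCtrl. The top 10% of a list by score took in only 2.57% and 2.57% of the chromosome 13 peaks of the siLSD1 libraries, and 1.89% and 1.92% of those of the siCtrl libraries.

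Along the long arm the mark fell into dense stretches separated by near-empty sequence. The chromosome was divided into 24 bins of 5 Mb, of which 21 held a region. The densest full bin was the last one, from 110 to 115 Mb in band 13q34, with 129 regions. It had 20.8 and 22.4 peaks per Mb in the siLSD1 libraries and 17.6 and 21.4 in the siCtrl libraries. It was also the bin of highest median score percentile among the full ones with over 10 regions, at 52.2 and 53.5 for siLSD1 and 42.6 and 52.9 for siCtrl. The libraries ranked their bins alike, with Spearman's rho of 0.963 to 0.989 between pairs of libraries over the 21 bins, where all bins of a library share its depth. Bands 13q12.11 and 13q12.12, from 20 to 25 Mb, came next with 110 regions, and siLSD1 had 16.6 and 19 peaks per Mb there, against 11.8 and 17.2 for siCtrl. The bin from 95 to 100 Mb, in 13q32, held 91 regions, with 15.4 and 17.2 peaks per Mb for siLSD1 and 10.8 and 14.4 for siCtrl. These 3 bins together held 330 regions, or 31.5% of all.

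**Figure D1:**
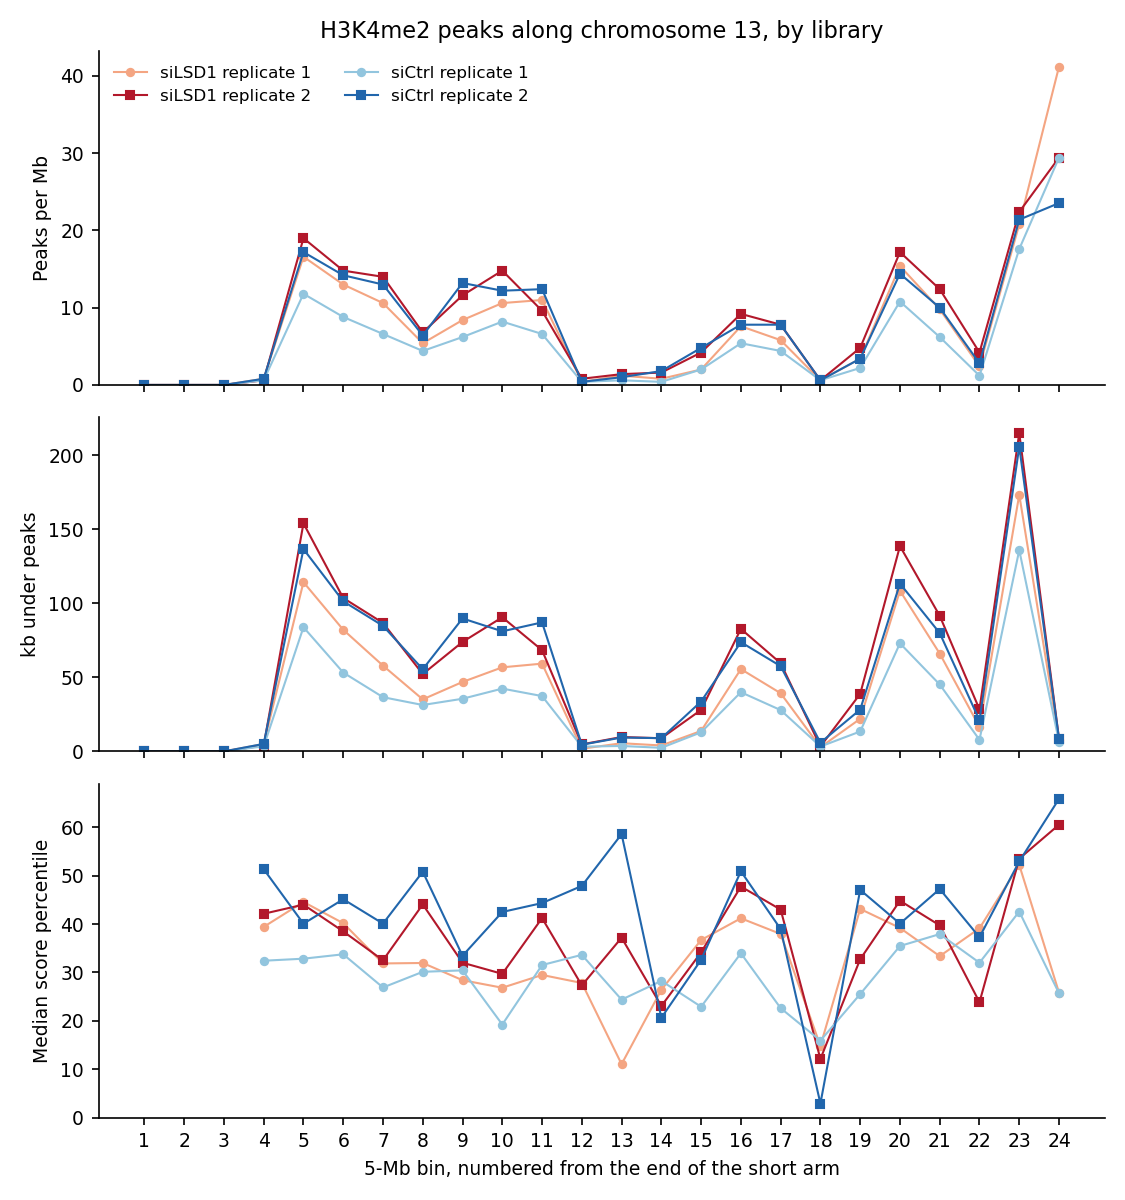
H3K4me2 peaks of chromosome 13 in 5-Mb bins, numbered from the tip of the short arm, for each library. The upper panel gives peaks per Mb, the middle panel kb under peaks, and the lower panel the median percentile of the peaks' scores within their own list. Bin 24 is the last short stretch of the arm and holds 5 regions. The 4 libraries trace the same highs and lows in the upper 2 panels but not in the lower one, and in the middle panel the squares (replicates 2) lie above the circles (replicates 1) in 20 of 21 bins with a region.

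From 25 to 55 Mb the density was intermediate. The bin from 25 to 30 Mb had 82.1 and 104 kb under peaks in siLSD1 and 53.2 and 101 kb in siCtrl. The bin from 30 to 35 Mb had 10.6 and 14.0 peaks per Mb in siLSD1 and 6.6 and 13 in siCtrl. The bin from 35 to 40 Mb was lower, at 5.4 and 6.8 for siLSD1 and 4.4 and 6.4 for siCtrl. Density was higher again from 40 to 55 Mb, in bands 13q14.11 to 13q14.3. Over those 3 bins it ran from 8.4 to 14.8 peaks per Mb in the siLSD1 libraries and from 6.2 to 13.2 in the siCtrl libraries. The 45-to-50-Mb bin there had 84 regions, of which 26 were called in all 4 libraries.

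The emptiest stretch ran from 55 to 75 Mb, across band 13q21 and into 13q22, and held 47 regions in 20 Mb, of which 9 were called in all 4 libraries. The bin from 55 to 60 Mb had 0.4 and 0.8 peaks per Mb in siLSD1 and 0.4 and 0.4 in siCtrl. Its kb under peaks were 1.79 and 4.73 for siLSD1 and 3.19 and 4.51 for siCtrl, spread over 3 regions. A further sparse stretch, from 85 to 95 Mb, held 33 regions, 7 of them in all 4 libraries. Of the 33, 5 lay from 85 to 90 Mb and 28 from 90 to 95 Mb. Between the 2 stretches, from 75 to 85 Mb, were 100 regions, and there siLSD1 had from 5.8 to 9.2 peaks per Mb and siCtrl from 4.4 to 7.8. The bin from 105 to 110 Mb was sparse too, with 24 regions. It had 2.4 and 4.2 peaks per Mb in siLSD1 and 1.2 and 2.8 in siCtrl.

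The longest interval without a peak in any library list spanned 3.85 Mb, at chr13:54357193-58203087, from 13q14.3 into 13q21.1. The pooled lists placed 2 siLSD1 peaks and 2 siCtrl peaks within it. The next were 2.74 Mb at chr13:84456763-87193721 in 13q31.1, and 2.59 Mb at chr13:88474284-91066839 in 13q31.2 and 13q31.3. Each of those held 1 pooled siLSD1 peak and 0 pooled siCtrl peaks. There were 16 intervals over 1 Mb, and the median distance between neighbouring regions was 26.8 kb, against 15.5 kb elsewhere. By staining, the 6 darkest (gpos100) bands of the long arm had 5.05 regions per Mb and the 2 next (gpos75) 5.13. The 3 gpos50 bands had 14.31, the 4 palest stained (gpos25) bands 21.0 and the 16 unstained (G-negative) bands 13.9, so density did not follow the staining in order.

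Knockdown of LSD1 was set against the control siRNA first over the whole chromosome. The siLSD1 libraries had 740 and 894 peaks on chromosome 13, against 530 and 832 in the siCtrl libraries. The siCtrl replicate 2 library thus lay above siLSD1 replicate 1, and the groups overlapped. The means were 817 ± 109 peaks for siLSD1 and 681 ± 214 for siCtrl (SD, n = 2 each), a ratio of 1.20 with a two-sided exact permutation p of 0.667, where 0.333 is the smallest p that 2 libraries against 2 allow. Within replicates 1 the ratio was 1.40 and within replicates 2 it was 1.07. With equal numbers of top-scoring peaks per list the ratio was 0.833, and leaving out 1 library in turn gave 0.982 without siCtrl replicate 1 and 1.54 without siCtrl replicate 2 as the extremes. On the other chromosomes the ratio was 1.27, being 1.49 within replicates 1 and 1.11 within replicates 2.

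Covered length behaved likewise. Peaks covered 0.974 and 1.35 Mb of chromosome 13 in the siLSD1 libraries, against 0.699 and 1.29 Mb in the siCtrl libraries. The means were 1.16 ± 0.267 Mb for siLSD1 and 0.995 ± 0.419 Mb for siCtrl (SD, n = 2 each, exact permutation p 0.667), a ratio of 1.17 that was 0.945 with equal numbers. Since the lists differ in length, the share of each list that lay on chromosome 13 was compared too. It was 1.46% and 1.80% for siLSD1 and 1.56% and 1.86% for siCtrl, with means of 1.63 ± 0.240% and 1.71 ± 0.206% (SD, n = 2 each, exact permutation p 0.667). The differences in covered length and in share were smaller than the SD of either group. That in peak number, 136, was above the siLSD1 SD of 109 and below the siCtrl SD of 214. A larger covered length can reflect a longer list, as from deeper sequencing, more cells with the mark or more mark per cell. These cannot be told apart in these libraries.

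The split by replicate number was wider on chromosome 13 than the split by siRNA. Replicates 2 had 1.36 times the peaks of replicates 1 on this chromosome, against 1.11 times elsewhere, and this was the highest of the 23 chromosomes, with X next at 1.35. For siLSD1 the ratio of replicate 2 to replicate 1 was 1.21 on chromosome 13 and 0.977 elsewhere. For siCtrl it was 1.57 on chromosome 13 and 1.32 elsewhere. The siLSD1 to siCtrl ratio of 1.20 was the second lowest of the 23 chromosomes, after X at 1.12. By the pooled lists the ratio was 1.25, the 10th lowest of 23. What the replicate numbers share, such as a day or a batch, is not given in the labels, and its part in these ratios was not tested.

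**Figure D2:**
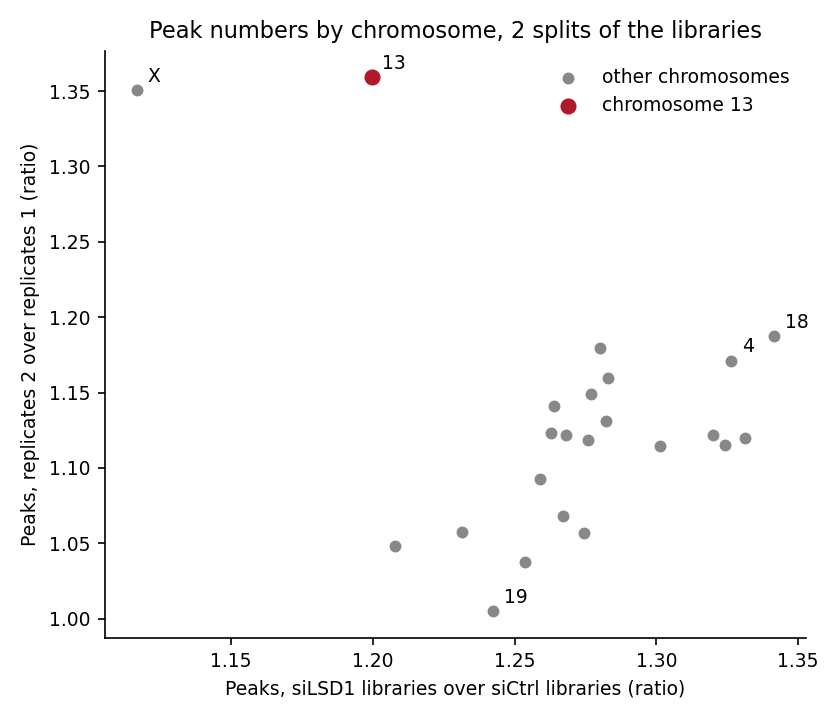
Each point is 1 of the 23 chromosomes (1 to 22 and X). The horizontal axis gives the peaks of the siLSD1 libraries over those of the siCtrl libraries, and the vertical axis the peaks of replicates 2 over those of replicates 1, both as ratios. Chromosome 13, at 1.20 and 1.36, stands with X at the top left, apart from the other chromosomes.

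The same held bin by bin. Both siLSD1 libraries had more peaks than both siCtrl libraries in 2 of the 21 bins with a region, from 60 to 65 Mb and from 95 to 100 Mb, whereas 68.5% of the 597 bins of all chromosomes had that order. In kb under peaks the siLSD1 libraries were above in 0 of 21 bins, against 49.7% of all bins. Neither measure had a bin with both siLSD1 libraries below both siCtrl libraries, on chromosome 13 or anywhere (0.0% of all bins for each). Both replicates 2 exceeded both replicates 1 in peak number in 13 of 21 bins, against 16.1% of all bins, and in kb under peaks in 20 of 21, against 47.6% of all bins. The exception in kb was the bin from 15 to 20 Mb, at the start of the long arm, with 5 regions.

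After scaling to list length, limma over all bins found no bin past a Benjamini-Hochberg adjusted p of 0.05. Of 592 bins tested, 0% were called higher and 0% lower after siLSD1, while 12 higher and 5 lower bins had an unadjusted p under 0.05. On chromosome 13 all 21 bins were tested, 9 with a positive and 12 with a negative estimate, with a median log2 fold change of -0.04, against 0.02 over all bins. The split moved with the scaling, to 18 positive and 3 negative without scaling to list length (median 0.32, against 0.38 over all bins) and to 2 positive and 17 negative with equal numbers of peaks (median -0.17). The smallest unadjusted p was that of the bin from 110 to 115 Mb, whose share of the list was lower after siLSD1, with a log2 fold change of -0.20 ± 0.0884 (SE, n = 2 libraries each, limma adjusted p 0.970). Without siCtrl replicate 2 that bin was called, at a log2 fold change of -0.26 ± 0.0806 (SE, limma adjusted p 0.0101), among 54 higher and 44 lower bins genome-wide. In that fit siCtrl is 1 library, assumed to vary like the siLSD1 pair whose spread alone gives the SE, so the call is no measure of the siRNA difference.

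At the scale of single loci, kb under peaks were compared in 10-kb windows with limma. None of 43372 windows passed the adjusted threshold in either direction (0% called), with an adjusted p of 0.129 as the smallest on chromosome 13. At an unadjusted p under 0.05, 5389 windows genome-wide (12.4%) were higher after siLSD1 and 840 (1.94%) lower. Of the 676 windows of chromosome 13, 34 (5.03%) were higher and 12 (1.78%) lower at that level. The estimate was positive in 460 and negative in 216 of these windows, with a median difference of 0.160 kb, against 0.213 kb over all windows. This direction turned with the scaling. After quantile normalization 215 windows of chromosome 13 were positive and 461 negative, with a median of -0.200 kb against -0.146 kb over all windows, and 7 were higher and 32 lower at an unadjusted p under 0.05. With equal numbers of peaks, 277 of 514 windows were positive, with 9 higher and 38 lower at that level.

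Presence across libraries showed how few members were shared by all. On chromosome 13, 390 regions, or 37.3% (exact 95% interval 34.3 to 40.3%, counting error only), had a peak in all 4 libraries, against 45.4% elsewhere and 45.2% of all regions. That share was the lowest of the 23 chromosomes, but chromosomes 18 and 4 were close, at 38.3% and 38.8%. A peak in 1 library alone was seen for 289 regions, of which 132 came from siLSD1 replicate 2, 98 from siCtrl replicate 2, 50 from siLSD1 replicate 1 and 9 from siCtrl replicate 1. Regions with a peak in both replicates 2 and neither replicate 1 numbered 77, or 7.36%, against 3.85% of all regions. The reverse pattern, in both replicates 1 only, was seen for 5 regions, or 0.478%, against 0.439% of all regions. A further 146 regions, or 14.0%, were missing only from siCtrl replicate 1, against 11.5% of all regions, and 44, or 4.21%, only from siLSD1 replicate 1, against 1.33%. Of the jointly covered sequence of 2 libraries, siLSD1 replicate 2 and siCtrl replicate 2 shared 64.9%, while siLSD1 replicate 1 and siCtrl replicate 1 shared 50.3%. Across replicate numbers, siLSD1 replicate 1 and siCtrl replicate 2 shared 57.7%, and siLSD1 replicate 2 and siCtrl replicate 1 45.4%. The siLSD1 pair shared 57.2% and the siCtrl pair 49.3%, and the 3 pairs with siCtrl replicate 1, the shortest list, were the lowest.

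The 390 common regions are those where the mark was established in each library, so their breadth and rank could be followed. They averaged 1802 and 2132 bp under peaks in the siLSD1 libraries and 1585 and 2117 bp in the siCtrl libraries. The means were 1967 ± 233 bp for siLSD1 and 1851 ± 376 bp for siCtrl, a difference of 116 bp that was smaller than the SD of either group (n = 2 each, exact permutation p 0.667). Common regions elsewhere averaged 2753 and 2908 bp in siLSD1 and 2470 and 2800 bp in siCtrl. Their mean score percentile on chromosome 13 was 53.1 and 58.3 for siLSD1 and 41.8 and 59.7 for siCtrl, with means of 55.7 ± 3.70 and 50.7 ± 12.6 (SD, n = 2 each, exact permutation p 1). Elsewhere it was 68.3 and 68.7 for siLSD1 and 56.5 and 67.2 for siCtrl. In each library the common regions of chromosome 13 were thus shorter and of lower rank than those elsewhere.

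**Figure D3:**
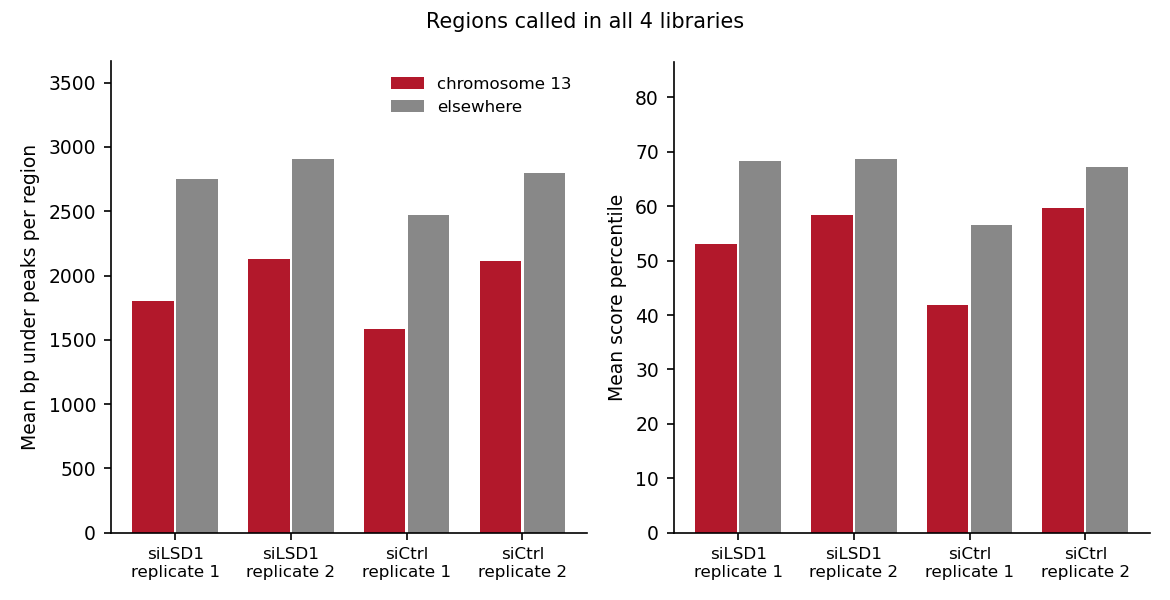
Mean bp under peaks per region (left) and mean score percentile (right) of the regions called in all 4 libraries, for chromosome 13 (390 regions) and for the other chromosomes, in each library. Bars are means over regions of 1 library and start at 0. Chromosome 13 is lower in each of the 4 libraries in both panels, and siCtrl replicate 1 is the lowest library.

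Among the 390 common regions, 78 were broader in each siLSD1 library than in any siCtrl library, or 20.0%, against 30.3% of all common regions, and 24 were narrower in each, or 6.15%, against 9.62%. Single regions were not tested, and the extremes named next were picked by their values.

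By kb under peaks averaged over the 4 libraries, the broadest common region lay in 13q12.11, at chr13:22242428-22250298. Peaks covered 7.76 and 7.61 kb of it in siLSD1 and 7.37 and 7.87 kb in siCtrl, so that the groups overlapped. A similarly broad one in 13q34, at chr13:110956183-110964220, had 7.12 and 7.14 kb in siLSD1 and 6.77 and 8.04 kb in siCtrl. As a merged interval it was the widest common region of the chromosome, at 8.04 kb, where those elsewhere went up to 29.5 kb. A pair in 13q32.3 followed, the band of the ZIC2 transcription factor gene. The one at chr13:100630203-100637602 had 6.14 and 6.22 kb in siLSD1 and 7.15 and 7.40 kb in siCtrl. It was both the third broadest and, at -1.10 kb, the common region with the largest decrease among those whose groups did not overlap. Its neighbour at chr13:100619649-100624777 did not share this order, with 4.96 and 4.73 kb in siLSD1 and 4.82 and 5.01 kb in siCtrl. The other 2 of the 6 broadest overlapped between the groups. In 13q34, chr13:114893001-114899073 had 5.86 and 6.02 kb in siLSD1, against 4.26 and 5.89 kb in siCtrl. In 13q22.3, chr13:77898725-77905061 had 4.19 and 6.07 kb in siLSD1, against 3.78 and 6.12 kb in siCtrl.

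The largest increase among regions with separate groups was 1.36 kb, at chr13:93877990-93883182 in 13q31.3, with 4.12 and 5.19 kb in siLSD1 and 2.63 and 3.95 kb in siCtrl. Next came chr13:114538077-114542086 in 13q34, with 3.58 and 4.01 kb in siLSD1 and 1.77 and 3.44 kb in siCtrl. The region at chr13:80054581-80058080 in 13q31.1 had 3.31 and 3.35 kb in siLSD1 and 1.79 and 2.59 kb in siCtrl, a difference of 1.14 kb that became -0.518 kb with the upper 50% of each list by score and 0.337 kb with equal numbers. In all 3 the siCtrl libraries lay well apart from each other, with replicate 1 the narrower. The other decreases were of -0.954 kb at chr13:24152200-24155136 in 13q12.12 and -0.808 kb at chr13:73633152-73635729 in 13q22.1. The site in 13q12.12 had 1.25 and 2.63 kb in siLSD1 and 2.87 and 2.91 kb in siCtrl. That in 13q22.1 had 0.986 and 1.23 kb in siLSD1 and 1.25 and 2.58 kb in siCtrl.

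Gained regions were those with a peak in both siLSD1 libraries and in no siCtrl library, and lost regions the reverse. Presence in these lists chose them, and the chromosome was taken up with its low gained share known, so their counts are a description. On chromosome 13, 40 of 1046 regions were gained, or 3.82% (exact 95% interval 2.75 to 5.17%), against 7.02% elsewhere and 6.97% of all regions. Lost regions numbered 15, or 1.43% (0.805 to 2.35%), against 1.04% elsewhere and 1.04% of all regions. Both intervals give counting error only, treat regions as independent, and are no test against the share elsewhere. There were 2.67 gained regions for each lost one, and only X had a lower ratio, of 1.60. Without siLSD1 replicate 1 or without siCtrl replicate 2, when 1 library stands for its siRNA, the gained share was 17.2% and 19.3% on chromosome 13, against 17.9% and 19.5% elsewhere. Without siLSD1 replicate 2 or siCtrl replicate 1 it was 9.85% and 4.42%, against 16.9% and 7.97% elsewhere. The gained share of chromosome 13 was thus near that elsewhere when siLSD1 replicate 1 or siCtrl replicate 2 was left out. Leaving out a library also changes what counts as gained, and the source of the lower share was not tested. The gained share with all libraries was 6.97% on chromosome 4 and 6.71% on chromosome 18, and 1.87% on X.

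These counts depended on the lengths of the lists. When the 33878 top-scoring peaks of each library were taken, 8 of 720 regions were gained, or 1.11% (0.481 to 2.18%), against 3.29% of all regions. Under the same limit 38 were lost, or 5.28% (3.76 to 7.17%), against 3.42% of all regions. Here too the intervals give counting error only. Of the 40 gained regions, 2 were again gained with equal numbers, 14 had another pattern and 24 had no peak left. Of the 15 lost regions, 4 were again lost and 11 had another pattern.

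Gained regions were weak peaks. Their scores ran from 50.5 to 161 in siLSD1 replicate 1 and from 52.4 to 268 in siLSD1 replicate 2, where the lists begin at 50. Their median percentile was 15.3 in replicate 1 and 23.4 in replicate 2, against 24.2 and 23.8 for gained regions elsewhere. Lost regions ran from 50.3 to 113 in siCtrl replicate 1 and from 53.9 to 205 in siCtrl replicate 2, with median percentiles of 9.39 and 17.5. The median width was 1126 bp for gained and 1104 bp for lost regions, with 2425 and 1789 bp as the widest. In 25 of the 40 gained and in 9 of the 15 lost regions the percentile was higher in replicate 2.

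**Figure D4:**
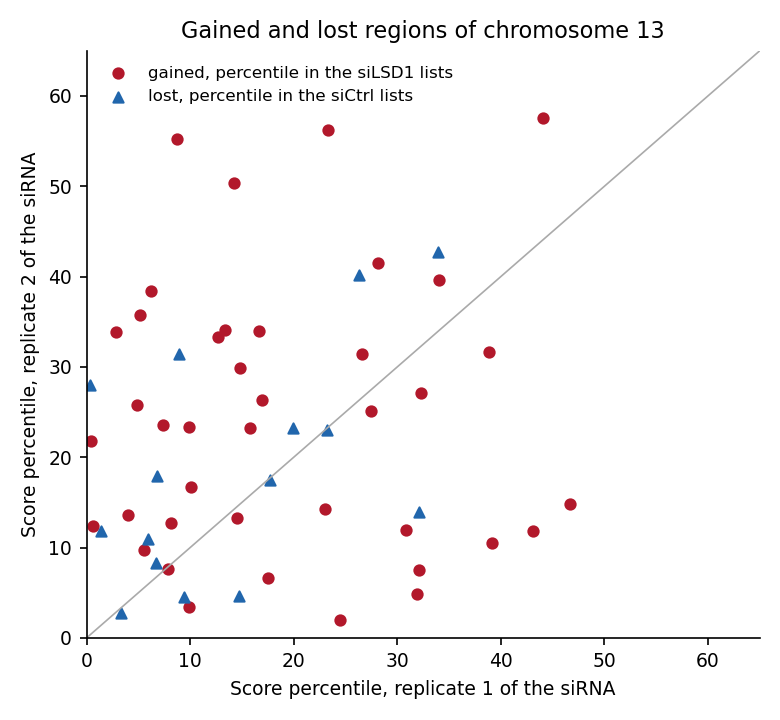
Score percentile of each gained region in the 2 siLSD1 lists and of each lost region in the 2 siCtrl lists. The horizontal axis is replicate 1, the vertical axis replicate 2, and the line marks equal percentiles. The highest percentile of any point is 57.5, and 25 of the 40 gained regions lie above the line.

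The gained regions were scattered along the arm, from the first at chr13:22016315-22017922 onward, with a median distance of 0.878 Mb between neighbours and 4 pairs under 0.1 Mb apart. Of the 40, 18 lay in the first 60 Mb of the chromosome, 7 between 60 and 95 Mb and 15 beyond, where all regions numbered 547, 177 and 322. The bin from 95 to 100 Mb held 8 of them, the bin from 30 to 35 Mb 6, and the bins from 45 to 50 and from 100 to 105 Mb 4 each. The most populated bin, from 110 to 115 Mb, had 1 gained and 2 lost regions among its 129. Lost regions were at most 3 to a bin, and lay 8, 3 and 4 to those same segments. Gained regions were found in 14 bins and lost ones in 12, with both in 10 bins. Within 5 kb of a common region lay 3 gained and 3 lost regions, or 7.5% and 20.0%, against 17.8% of the 601 regions that were neither gained, lost nor common. Another region of any class lay within 5 kb of 9 gained and 7 lost regions, or 22.5% and 46.7%. That share was 43.0% over all regions of chromosome 13. Within 1 kb it lay for 4 gained (10%) and the same 7 lost regions, against 28.0% of all regions of the chromosome.

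**Figure D5:**
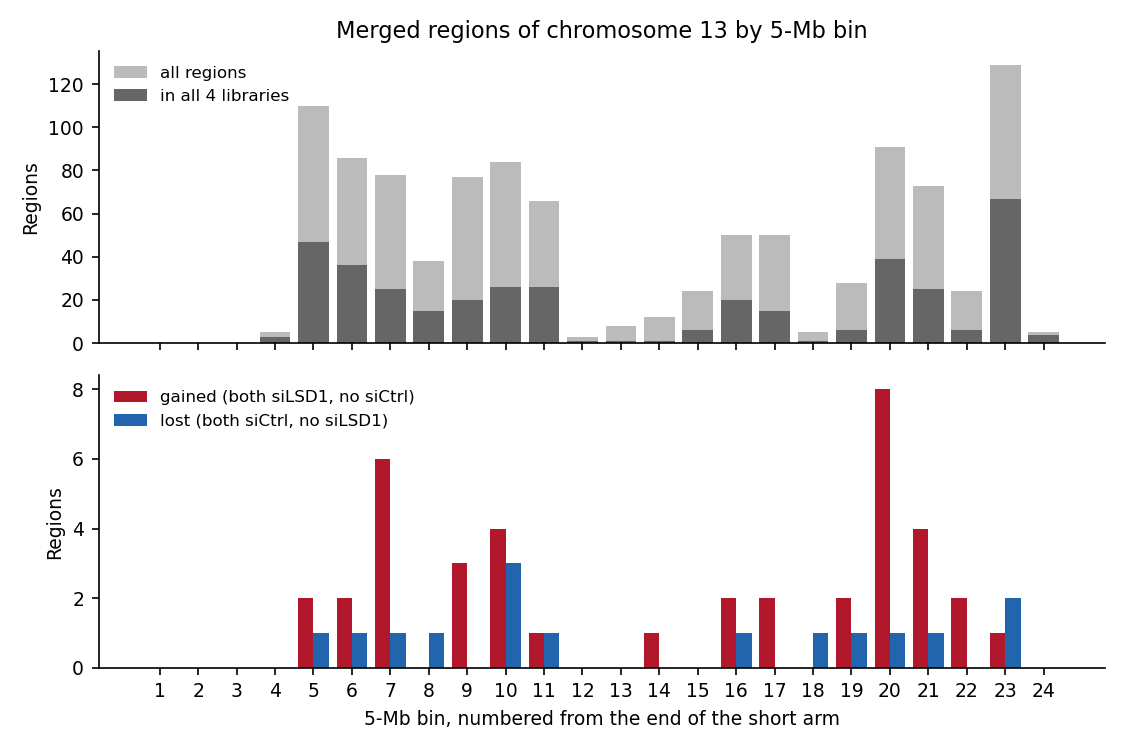
Merged regions of chromosome 13 in 5-Mb bins numbered from the tip of the short arm. The upper panel counts all regions and those in all 4 libraries, and the lower panel gained and lost regions. Gained regions are most numerous in bin 20 with 8 and bin 7 with 6, while bin 23, the fullest with 129 regions, has 1.

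Where the pooled lists bore on a gained region, 32 of the 40 had a peak in the pooled siLSD1 list only and 8 had one in both pooled lists. The highest pooled score of a gained region was 445, at chr13:44146748-44148794 in 13q14.11. It scored 150 and 268 in the siLSD1 libraries and had no peak in the siCtrl libraries, yet the pooled siCtrl list had a peak of 96.0 there. It was 204 kb from the nearest common region and was again gained with equal numbers of peaks.

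Among gained regions absent from the pooled siCtrl list, the top one was chr13:78081664-78084088 in 13q22.3, with scores of 86.7 and 256 in the siLSD1 libraries and 344 in their pool. Its peak was 0.869 kb wide in replicate 1 and 2.43 kb in replicate 2. The next, chr13:30716017-30717918 in 13q12.3, scored 61.0 and 248 in the siLSD1 libraries and 268 in the pool. At chr13:22016315-22017922 in 13q12.11 the scores were 69.6 and 209, with 264 in the pool. Within their lists these 3 stood at percentiles 23.3, 8.71 and 14.24 in siLSD1 replicate 1 and 56.2, 55.2 and 50.4 in replicate 2, a lower rank in replicate 1. The region at chr13:98917696-98918873 in 13q32.2 scored 56.2 and 131, and that at chr13:100008129-100009550 in 13q32.3 scored 130 and 115. At chr13:102107356-102108783 in 13q33.1 the scores were 114 and 148, and this was the other region gained with equal numbers. The remaining pair ranked higher in replicate 1. Scores were 161 and 73.2 at chr13:52303562-52304953 in 13q14.3, and 105 and 67.7 at chr13:45241692-45242653 in 13q14.12.

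Of the 15 lost regions, 7 had a peak in the pooled siCtrl list only and 8 in both pooled lists. A pooled peak was counted wherever it touched the region, and it can reach beyond it. Of the pooled siCtrl peaks that overlapped no pooled siLSD1 peak, only 5 had both siCtrl libraries and no siLSD1 library behind them. The lost region of highest library scores was chr13:76365491-76367130 in 13q22.2, with 113 and 205 in the siCtrl libraries and 286 in their pool. It was also lost with equal numbers, and another region lay 0.39 kb away. So was chr13:113985283-113986406 in 13q34, with 60.4 and 134 in the siCtrl libraries and 172 in the pool. The highest pooled score, 756 at chr13:92004092-92004814 in 13q31.3, stood at percentile 69.3 of the pool. The library scores there, 57.5 and 63.2, stood at percentiles 6.71 and 8.33, and the region was 0.032 kb from a common region. Whether the pooled peak of 756 extends over that common region was not examined, so its score may not belong to the lost region alone. In 13q33.1, chr13:103247903-103249183 scored 86.5 and 99.6 and was 0.916 kb from a common region. The remaining 3, at chr13:48810602-48811561 in 13q14.2, chr13:95654971-95655932 in 13q32.1 and chr13:45805323-45806122 in 13q14.13, scored between 51.4 and 70.3 in either siCtrl library.

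Some such calls came near to the 1-bp rule. The lost region at chr13:36342022-36343810 in 13q13.3 was 0.005 kb from its nearest region. The closest gained and lost regions lay in 13q14.2, the band of RB1. There the lost region at chr13:48810602-48811561 began 124 bp beyond the end of a gained one, so that adjoining peaks of the 2 siRNAs were read as a gain beside a loss. The pooled siCtrl list had a single peak across both, with a score of 135.

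Set against each other directly, the pooled lists had 1009 siLSD1 peaks and 810 siCtrl peaks on the chromosome. Of the siLSD1 peaks, 250 overlapped no siCtrl peak, or 24.8% (exact 95% interval 22.14 to 27.56%), against 27.0% of all pooled siLSD1 peaks. Of the siCtrl peaks, 78 overlapped no siLSD1 peak, or 9.63% (7.69 to 11.9%), against 8.86%. Only 32 of the 250 had a peak in both siLSD1 libraries and none in siCtrl, while 127 had one in a single siLSD1 library and 76 in no library list. Of the 78, 5 had both siCtrl libraries and no siLSD1 library behind them. These unshared peaks had median widths of 1006 bp for siLSD1 and 935 bp for siCtrl, where peaks shared by the pools had medians of 1609 and 1604 bp.

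The bands that carry known genes were described next, as 21 bands named for 28 genes. A band holds many genes, and no peak was given to any of them. The kb under peaks of both siLSD1 libraries were above those of both siCtrl libraries in 0 of the 21 bands, against 49.0% of the 806 bands with a peak on all chromosomes, and below in 0, against 0.496%. In peak number both siLSD1 libraries were above in 3, against 63.8% of all bands, and below in 0, against 0.248%. Bands 13q22.3 and 13q32.3 were among these 3. Gained regions lay in 14 of the 21 bands, against 86.7% of all bands, and lost regions in 8, against 44.5%. A band with few regions has less room for either, and some of the 21 had few, such as 13q21.1 with 1. The bands were not matched for their number of regions, so these shares show no shortage of gains.

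Among bands of tumour suppressor and growth control genes, 13q12.11, with the Hippo pathway kinase gene LATS2, had 76.4 and 100 kb under peaks in siLSD1 and 58.6 and 91.95 kb in siCtrl. Band 13q14.2, with RB1, had 38.3 and 60.1 kb in siLSD1 and 27.4 and 57.4 kb in siCtrl over 56 regions, with 3 gained and 2 lost. Band 13q13.1, with the DNA repair gene BRCA2, had 16.0 and 25.4 kb in siLSD1 and 13.2 and 27.4 kb in siCtrl. In all of these siCtrl replicate 2 was above siLSD1 replicate 1. Band 13q14.11, with FOXO1, had 52.9 and 80.9 kb in siLSD1 and 38.2 and 95.2 kb in siCtrl, over 80 regions, and here siCtrl replicate 2 was the highest of the 4 libraries. Band 13q31.1, with SPRY2, an inhibitor of receptor tyrosine kinase signalling, had 54.2 and 79.3 kb in siLSD1 and 39.1 and 76.3 kb in siCtrl.

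Among bands of matrix and basement membrane genes, 13q13.3, with the matrix protein gene POSTN, had 36.1 and 52.2 kb in siLSD1 and 31.32 and 56.4 kb in siCtrl. Band 13q34 holds COL4A1 and COL4A2, the collagen chains of basement membranes, with the insulin signalling adaptor gene IRS2 and the transcription factor gene SOX1. It had the most mark of all, with 180 and 221 kb in siLSD1 and 142 and 213 kb in siCtrl over 132 regions, of which 70 were common. In both of these bands both replicates 2 were above both replicates 1.

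The adhesion genes of the protocadherin family sit in the sparse middle of the arm. Band 13q21.1, with PCDH17, had 1 region, with 0.988 and 3.56 kb under peaks in siLSD1 and 3.19 and 3.75 kb in siCtrl. Band 13q21.2, with PCDH20, had 7 regions, with 5.68 and 8.08 kb in siLSD1 and 3.66 and 8.94 kb in siCtrl. Band 13q21.32, with PCDH9, had 11 regions, 1 of them gained, with 3.12 and 8.89 kb in siLSD1 and 2.41 and 8.92 kb in siCtrl. Band 13q14.3, with PCDH8, was denser, with 47 regions, and had 37.6 and 42.7 kb in siLSD1 and 22.5 and 58.2 kb in siCtrl. In each of the 4 protocadherin bands siCtrl replicate 2 was the highest library.

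Of bands with developmental transcription factor and signalling genes, 13q32.3, with ZIC2, was one of the 3 with separate groups in peak number. It had 47 and 57 peaks in siLSD1 and 33 and 42 in siCtrl, over 64 regions of which 3 were gained. Its kb under peaks still overlapped, at 68.0 and 87.9 kb for siLSD1 and 50.9 and 71.9 kb for siCtrl. Band 13q22.3, with the endothelin receptor gene EDNRB, had 14 and 17 peaks in siLSD1 and 11 and 11 in siCtrl. Band 13q12.3, with the VEGF receptor gene FLT1, had the most gained regions of the 21 bands, 5 of 53, and had 45.3 and 64.7 kb in siLSD1 and 25.1 and 60.7 kb in siCtrl. Band 13q22.1, with KLF5, a zinc finger transcription factor gene, had 9.28 and 22.2 kb in siLSD1 and 10.2 and 27.1 kb in siCtrl, the siCtrl library being the higher in either replicate. Band 13q33.3, with the ephrin ligand gene EFNB2, had 17.4 and 29.8 kb in siLSD1 and 8.38 and 21.5 kb in siCtrl. The siLSD1 library was the higher in either replicate, as in several other bands, among them 13q12.11, 13q14.2 and 13q34. Here too siCtrl replicate 2 was above siLSD1 replicate 1.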

How the data were processed

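H3K4me2 chromatin immunoprecipitation libraries of RD cells were analysed from the deposited peak lists, 1 for each of 4 libraries and 1 pooled list for each siRNA. The 4 input libraries were not analysed here. Per the submitters' processing notes, reads were aligned with Bowtie to hg19. The deposited peaks are named after MACS. Neither tool's version or settings, nor any use of the input or the way of pooling, is given in the sources used here. The deposited score per peak is the authors' own value, with a minimum of 50 to 50.01 and ties at 3100. Read depth is unknown, so a longer list may come from deeper sequencing. The library lists held 50587 and 49611 peaks for siLSD1 and 33878 and 44831 for siCtrl.

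Chromosomes 1 to 22 and X were kept. Coordinates are hg19, counted from 1, and bands came from circlize 0.4.16. Peaks were counted in 5-Mb bins and bands by their midpoint, which also placed kb under peaks in bands. In bins and 10-kb windows, kb under peaks counted only the sequence inside each. Regions were merged at 1 bp of overlap. Totals were compared by two-sided exact permutation tests. Bins (log2 of peaks per 10000 listed peaks plus 0.5, at least 10 peaks in all) and 10-kb windows (at least 0.5 kb in at least 2 libraries) were tested over all chromosomes with limma 3.58.1 (trend and robust, statmod 1.5.0, R 4.3.3), Benjamini-Hochberg adjusted, threshold 0.05. Shares carry exact Clopper-Pearson 95% intervals, which give counting error only and leave out the spread between libraries. The steps were tested on simulated data. Other steps used Python 3.11.15 with scipy 1.17.1, numpy 2.4.6, matplotlib 3.10.9 and pandas 2.3.3.

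The named regions are the 8 gained and 8 lost (7 qualified) of highest score in their own pooled list and absent from the other, the gained and the lost region of highest pooled score, the 6 broadest common regions by kb under peaks averaged over libraries, the 3 largest increases and 3 largest decreases in breadth with separate groups, and the 3 longest intervals without a peak. The members and lists were chosen with earlier results of these data known. The alternatives tried were lists reduced to their upper 50% by score, lists of one length (33878 top-scoring peaks per library, 45219 per pool), 50% overlap of the shorter peak, a replicate block, other filters, scalings and a 10-Mb bin, and leaving out each library. Of the genes used to pick bands, 1 is not reported here.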

Additional observations from a re-analysis of the deposited data

How the results depend on the processing

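Equal numbers of peaks turned 3 comparisons of siLSD1 with siCtrl round: the ratio of peaks on chromosome 13 became 0.833, that of covered length 0.945, and the difference in mean score percentile of common regions -5.01. With the upper 50% of each list the difference in list share became 0.00432 percentage points. Leaving out 1 library gave peak ratios of 0.982 to 1.54, covered-length ratios of 0.900 to 1.66, share differences of -0.247 to 0.0919 percentage points, percentile differences of -3.44 to 13.8 and breadth differences of -128 to 359 bp, so none of these 5 directions held throughout. Gained regions numbered 16 with the upper 50% and 8 with equal numbers, and lost regions 5 and 38. Without siLSD1 replicate 1, siLSD1 replicate 2, siCtrl replicate 1 and siCtrl replicate 2 in turn, gained regions numbered 172, 92, 46 and 190 and lost ones 22, 63, 114 and 24. Lists that leave out a library need a peak in only 1 library of that siRNA, or its absence from only 1. The gained share on chromosome 13 over that elsewhere, 0.544 with all libraries, was then 0.964, 0.582, 0.555 and 0.991, so it was near that elsewhere without siLSD1 replicate 1 or siCtrl replicate 2. Pooled siLSD1 peaks without a siCtrl counterpart numbered 94 with the upper 50% and 123 with equal numbers, and pooled siCtrl peaks without a siLSD1 counterpart 38 and 142. Windows called on chromosome 13 were 13 of 313 with the upper 50%, 11 higher and 2 lower, against 1179 higher and 126 lower of 25524 windows genome-wide. Leaving out a library gave 0 to 1 called bin and 0 called windows. An overlap of 50% left gained and lost counts at 40 and 15. The cause of these shifts was not tested.

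With replicate number as a block, limma called 0 bins (smallest adjusted p 0.601) and 0 windows (0.176) on chromosome 13. Deviations of same-numbered libraries correlated at 0.379 over all bins and 0.662 over those of chromosome 13, and at 0.150 and 0.364 over windows. No label names a shared day or batch, so what same-numbered libraries share beyond the number is not known, and with 2 pairs it was not tested. Of 66 values of the 11 named common regions under the alternatives, 9 changed sign, in 5 regions, among them the increase at chr13:80054581-80058080 (-0.518 kb with the upper 50%). The lists' unknown depth and 2 libraries a group limit every comparison.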
